A study of Homo sapiens with 6 samples.

Results

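The 42 genes described here encode the kinases, cyclins, checkpoint proteins and spindle and cytokinesis proteins with which a cell enters and leaves mitosis. They were listed by name and function, by a rule that used no measured value but was written with earlier results of these data known, and each symbol matched a single row of the deposited table, so that they are 42 of 30345 rows in all and 42 of the 15634 genes that the authors' filtering left in the test. All 42 had less mRNA on polysomes after treatment with PT2399, with 0 higher, and their median log2 fold change was −0.55. The fall ran from 10301 to 9217 normalized counts for CKAP2, which kept 89.5% of its vehicle level, to 29013 to 14736 for ANLN, which kept 50.8%.

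The samples were 6 polysome-seq libraries of OS-RC-2, an established clear cell renal cell carcinoma (ccRCC) line that lacks functional VHL, grown in RPMI-1640 with serum. In 3 biological replicates the cells received 2 µM PT2399 for 72 h and in 3 they received vehicle for the same time. PT2399 is a small molecule that binds HIF2α, the transcription factor subunit encoded by EPAS1, and keeps it from pairing with its partner ARNT. Both groups therefore share the line and its loss of VHL, and a single line stands for the disease. Polysome-seq counts the mRNA carried by several ribosomes at once: the gradient fractions heavier than the single ribosome peak were pooled and their RNA was sequenced. Total mRNA was not analysed here, so less mRNA in the cell and a smaller share of it on polysomes cannot be told apart, nor can fewer cells in G2 and M phase and less RNA per such cell.

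Cells build most of the mitotic machinery anew in each cycle. Transcription of these genes is held down in G1 by the DREAM complex, which binds their promoters through MuvB subunits, and is raised in late S and G2 phase by MuvB with B-MYB and by FOXM1. The promoters of such genes often carry the cell cycle genes homology region (CHR, core TTTGAA), which MuvB binds, downstream of CCAAT boxes, which NF-Y binds. B-type cyclins then activate CDK1, Aurora and Polo kinases shape the spindle, the spindle checkpoint holds the anaphase-promoting complex (APC/C) inactive until each chromosome is attached, and the APC/C then marks cyclin B and securin for destruction. In tumours, MKI67 and its companions are commonly read as a measure of how many cells divide.

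The table held a mean over all 6 libraries, a log2 fold change of PT2399 over vehicle and its standard error (SE) for each gene, and no column of single libraries, so levels of single libraries and their overlap cannot be given. Group levels below are the normalized counts implied by the mean and the fold change. A gene was called lower or higher at an adjusted p of at most 0.05 in the authors' DESeq2 comparison. The scaling factors that relate the libraries to each other, read from the recurring means of genes with a lone read, spanned 0.782 to 1.10 in the PT2399 group and 0.900 to 1.19 in the vehicle group, and the ranges of the groups overlapped. The HIF2α gene EPAS1 fell by 2.19 (SE 0.07) on the log2 scale. Of 5 genes set as a check of the drug (EPAS1, NDRG1, VEGFA, EGLN3 and CCND1), 5 were called lower, where 11.7% of all tested genes were. These 5 were listed with earlier results of these data known, so their calls are a description and not an independent check. The 7 renal and epithelial markers of the line were all tested, whereas of 10 markers of immune, endothelial and stromal cells 2 were tested, CD68 and COL1A1, and neither was called.

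All 42 members passed the filter on low values and all 42 were called lower, where 11.7% of the 15634 tested genes were. Among the 10655 tested genes whose mean lay within the range of the members, 235 to 23201 normalized counts, 14.5% were called lower. None of the members was called higher, where 11.3% of tested genes were, and 0 were higher at any p. Over all tested genes the median was 0.00, and 6.51% of these fell by more than the members' median. The members were well measured: 39 had means of 1000 normalized counts or more, the median SE was 0.07 and 37 had an adjusted p under 0.001. Their falls were moderate, with 25 members falling by at least 0.5 on the log2 scale and 0 by 1 or more. Among all tested genes, 173 were called lower with a fall of that size. The SD of their log2 fold changes was 0.16 over the 42 genes.

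**Figure D1:**
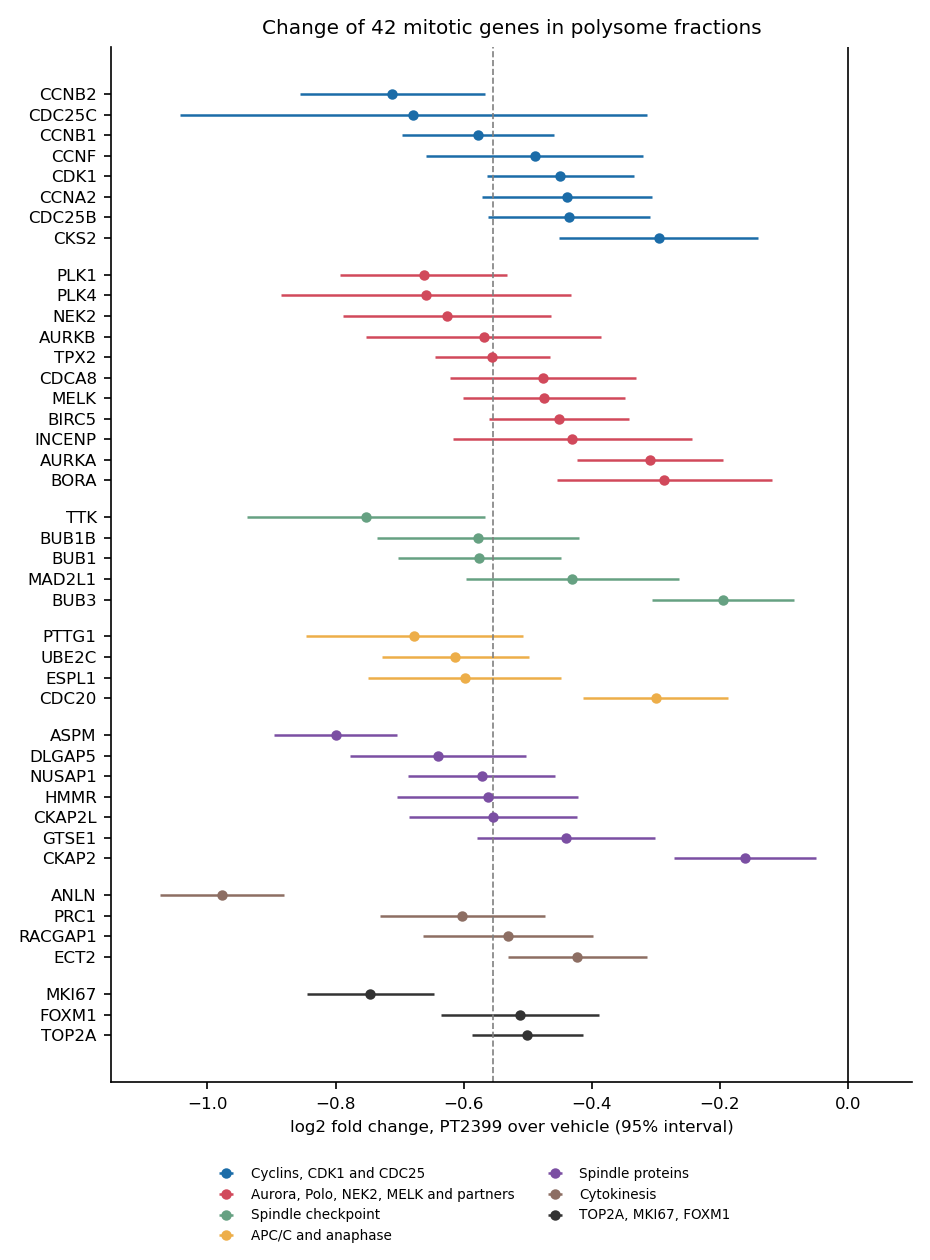
Log2 fold change of PT2399 over vehicle (horizontal axis) for each of the 42 genes, grouped and coloured by role, in 3 against 3 polysome libraries. Points are the authors' DESeq2 estimates and bars are 95% intervals from the SE, and the dashed line is the median of the 42 at −0.55. Every interval lies below 0, ANLN is farthest at −0.98 and CKAP2 nearest at −0.16.

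Ranked by size of fall, no pair of neighbours differed beyond their intervals: all 41 neighbouring pairs had 95% intervals that overlapped. The ends of the order did stand apart from the middle. ANLN, ASPM, TTK, MKI67 and CCNB2 had intervals wholly below the members' median, and ECT2, AURKA, CDC20, CKS2, BORA, BUB3 and CKAP2 had intervals wholly above it, while the other 30 intervals held it. Across the 42 genes the fall was hardly related to abundance (Spearman's rho with the mean 0.024) or to transcript length (rho −0.0049). These are descriptions across genes measured in the same libraries.

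A few abundant genes carried much of the summed fall. Summed over the members, the implied level went from 245263 to 164077 normalized counts, or 66.9% of vehicle, and ANLN, MKI67, ASPM and TOP2A made up 49.9% of that difference. The members together held 0.451% of all normalized counts. Among the tested genes 271 fell by more than ANLN, and 3 of those had a mean as high as its own.

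**Figure D2:**
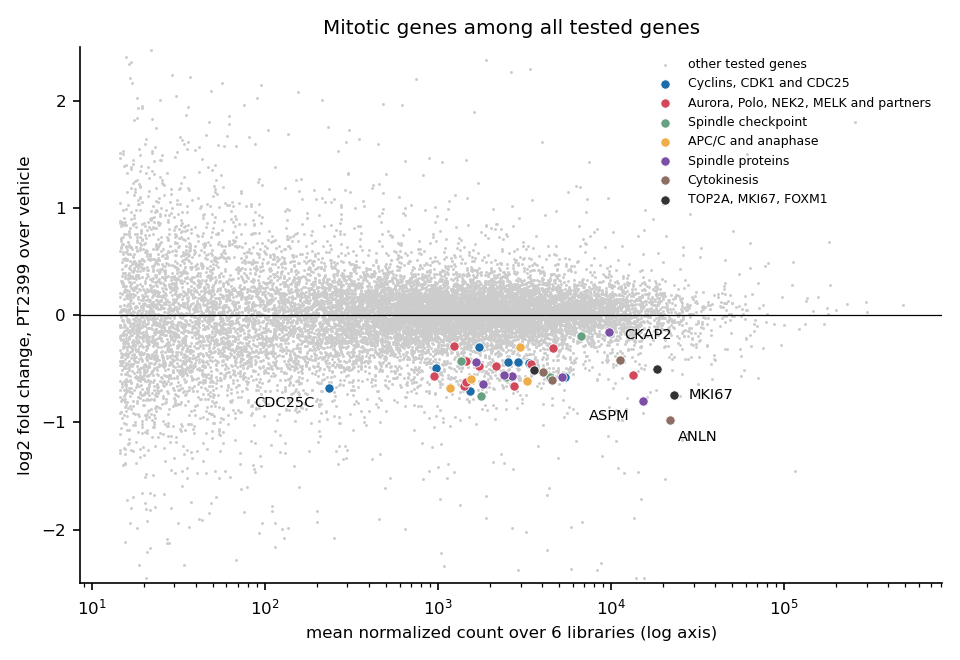
Log2 fold change of PT2399 over vehicle (vertical axis) against the mean normalized count over 6 libraries (log axis) for the tested genes, with the 42 mitotic genes coloured by role and 22 other genes beyond ±2.5 left out of view. The coloured points all lie below 0 and most have means over 1000, with ANLN, ASPM and MKI67 at the lower right.

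To show what the promoters of these genes look like, 200 bases (150 before the first listed start and 50 from it on) are given for the 3 largest falls with a listed promoter (ANLN, ASPM and MKI67), for CCNB2, a B-type cyclin with the arrangement typical of this class, and for the paralogs CKAP2L and CKAP2, whose falls differed. They were chosen after their values were seen. Sequences are from RefSeq on GRCh38.p14, 5′ to 3′ on the strand of the gene: ANLN chr7:36389712-36389911 (plus strand), ASPM chr1:197146620-197146819 (minus), MKI67 chr10:128126374-128126573 (minus), CCNB2 chr15:59104996-59105195 (plus), CKAP2L chr2:112764560-112764759 (minus) and CKAP2 chr13:52455838-52456037 (plus). Capitals mark the CHR core (TTTGAA or its reverse complement TTCAAA) and the CCAAT box (CCAAT or ATTGG).
ANLN: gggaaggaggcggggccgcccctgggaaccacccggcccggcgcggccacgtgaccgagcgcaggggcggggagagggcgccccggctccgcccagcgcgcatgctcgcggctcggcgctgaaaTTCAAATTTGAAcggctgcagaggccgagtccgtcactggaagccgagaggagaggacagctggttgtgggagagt
ASPM: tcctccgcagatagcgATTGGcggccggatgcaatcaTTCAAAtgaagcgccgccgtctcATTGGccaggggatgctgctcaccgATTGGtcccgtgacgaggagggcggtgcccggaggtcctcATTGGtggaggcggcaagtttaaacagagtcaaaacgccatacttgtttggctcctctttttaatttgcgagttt
MKI67: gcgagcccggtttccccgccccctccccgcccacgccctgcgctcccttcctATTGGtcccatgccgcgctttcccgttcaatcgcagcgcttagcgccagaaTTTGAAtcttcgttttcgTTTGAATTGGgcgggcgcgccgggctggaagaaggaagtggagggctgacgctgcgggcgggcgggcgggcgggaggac
CCNB2: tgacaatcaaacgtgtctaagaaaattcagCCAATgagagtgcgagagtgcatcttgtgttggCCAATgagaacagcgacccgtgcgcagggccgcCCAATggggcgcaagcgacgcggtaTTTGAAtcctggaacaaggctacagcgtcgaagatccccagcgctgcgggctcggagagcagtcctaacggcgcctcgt
CKAP2L: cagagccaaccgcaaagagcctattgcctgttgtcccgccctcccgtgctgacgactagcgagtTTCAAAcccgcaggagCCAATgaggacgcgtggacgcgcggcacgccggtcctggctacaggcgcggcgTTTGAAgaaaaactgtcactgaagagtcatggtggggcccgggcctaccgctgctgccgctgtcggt
CKAP2: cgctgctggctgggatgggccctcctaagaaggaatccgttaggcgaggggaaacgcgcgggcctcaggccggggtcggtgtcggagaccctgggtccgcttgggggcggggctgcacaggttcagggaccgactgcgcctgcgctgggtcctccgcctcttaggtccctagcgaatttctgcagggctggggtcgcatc
Within the windows shown, 3 CCAAT boxes of CCNB2, at −120, −87 and −54 from the start, precede a CHR core at −29. MKI67 has CCAAT boxes at −98 and −24 and CHR cores at −47 and −29. The core at −29 overlaps the box at −24. ANLN has a pair of adjacent CHR cores at −26 and −20 and 0 CCAAT boxes, and ASPM has 4 CCAAT boxes and a CHR core at −113. CKAP2L holds CHR cores at −86 and −17 around a CCAAT box at −70, whereas these letters occur 0 times in the window of CKAP2. The start listed for CKAP2 lies inside the RefSeq gene, which begins at position 52455478 of chromosome 13, so this window does not cover every start of that gene. Not marked is the core of the HIF binding site (ACGTG or CACGT), which occurs at −103 and −102 in ANLN and at −140 in CCNB2.

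The engine of mitotic entry is CDK1 with its cyclins, and all 8 members of this class fell (median −0.47, range −0.71 to −0.30). CDK1 itself went from 3876 to 2839 normalized counts, a fall of 0.45 (SE 0.06). CCNB1 and CCNB2, which encode the B-type cyclins that activate it, went from 6452 to 4325 and from 1905 to 1163. Their log2 fold changes of −0.58 (SE 0.06) and −0.71 (SE 0.07) had overlapping intervals. CCNA2, whose cyclin acts from S phase into early mitosis, kept 73.8% of its vehicle level, and CCNF, which encodes a substrate receptor of an SCF ubiquitin ligase rather than a CDK activator, kept 71.2%. CKS2, a small CDK-binding subunit, was the least changed of the class at 81.5% (adjusted p = 0.0016). CDC25B and CDC25C remove the inhibitory phosphates from CDK1. CDC25B kept 73.9%. CDC25C, the scarcest of the 42, went from 290 to 181 and kept 62.5%, with a wide interval of 48.5% to 80.4%. Its gene span overlaps that of FAM53C, with a log2 fold change of 0.24 (SE 0.08). The gene span of CCNA2 overlaps that of EXOSC9, which fell by 0.30 (SE 0.09). How much mature mRNA sequence these genes share was not measured. Use of strand in the counting was not given in the sources used here. Reads in the shared stretches may thus be of either gene, and their part in these values was not tested.

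The 11 mitotic kinases and their partners outside the CDK1 class also all fell (median −0.48, range −0.66 to −0.29). PLK1, the Polo kinase of spindle assembly and mitotic exit, went from 3377 to 2134, and PLK4, which starts centriole duplication, from 1723 to 1091. Both fell by 0.66, with SEs of 0.07 and 0.12. BORA, the cofactor with which Aurora A switches PLK1 on, kept 82.0% (adjusted p = 0.00568), the smallest fall of the class. Its gene span overlaps that of DIS3 over 4028 bases, more than the 2760 bases of the canonical BORA transcript. DIS3 rose by 0.21 (SE 0.05), a value whose part in that of BORA was not tested. AURKA, the centrosomal Aurora kinase, went from 5078 to 4099 (80.7%), whereas TPX2, which carries Aurora A to the spindle and activates it, went from 15991 to 10884 (68.1%) with an adjusted p of 9.3e-32. Their 95% intervals did not overlap.

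Aurora B works within the chromosomal passenger complex, and all of its subunits fell. AURKB went from 1132 to 763 (67.4%), and its partners CDCA8 (borealin), BIRC5 (survivin) and INCENP, the scaffold, kept 71.9%, 73.1% and 74.2%. The 4 intervals overlapped one another. NEK2, a kinase of centrosome separation, kept 64.8%, and MELK, a kinase abundant in dividing cells, kept 72.0%.

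The spindle checkpoint group held both a large fall and a very small one. TTK (MPS1), the kinase that starts checkpoint signalling at kinetochores, went from 2218 to 1317, a log2 fold change of −0.75 (SE 0.09) and the third in size of all members. BUB1 and BUB1B (BUBR1) each fell by 0.58, to 67.1% and 67.0% of vehicle, and MAD2L1, the MAD2 protein that captures CDC20, kept 74.2%. BUB3, the adaptor that brings BUB1 and BUBR1 to kinetochores, went from 7156 to 6251 and fell by only 0.20 (SE 0.06, adjusted p = 0.00379). Its interval did not overlap those of its partners BUB1 and BUB1B.

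The target of that checkpoint, CDC20, is the activator of the APC/C in mitosis, and it was among the smaller falls, from 3307 to 2686 (81.2%). The other genes of anaphase onset fell further. UBE2C, the ubiquitin-conjugating enzyme of the APC/C, went from 3962 to 2591 (65.4%, adjusted p = 5.0e-24). PTTG1 (securin) and ESPL1 (separase), the inhibitor and the protease that cuts cohesin once securin is gone, went from 1444 to 904 and from 1869 to 1234. The intervals of PTTG1, UBE2C and ESPL1 all lay wholly below that of CDC20.

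The 7 spindle proteins all fell, with a median of −0.56 and a range from −0.80 to −0.16. ASPM, a spindle pole protein, went from 19330 to 11105, a fall of 0.80 (SE 0.05, adjusted p = 2.4e-57). DLGAP5 (HURP), NUSAP1 and HMMR, which bind and stabilise spindle microtubules, kept 64.2%, 67.3% and 67.7%, and GTSE1, which tracks microtubules, kept 73.7%. CKAP2 fell by 0.16 (SE 0.06) with an adjusted p of 0.0231, the largest among the members, while its paralog CKAP2L went from 2847 to 1938 and fell by 0.55 (SE 0.07).

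Of 6 pairs of related genes compared (CCNB1 and CCNB2, CDC25B and CDC25C, AURKA and AURKB, PLK1 and PLK4, BUB1 and BUB1B, CKAP2 and CKAP2L), CKAP2 and CKAP2L were those whose 95% intervals did not overlap, with CKAP2L lower by 0.39. The other differences ran from 0.00 to 0.26 in size. The pairs were chosen after values were seen, and the differences themselves were not tested, since the table gives no covariance between genes.

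Cytokinesis carried the largest single fall. ANLN encodes anillin, which ties actin, myosin and septins together in the contractile ring, and it fell by 0.98 (SE 0.05, adjusted p = 9.2e-85). ECT2, the exchange factor that activates RhoA at the equator, went from 12877 to 9609 and fell by 0.42 (SE 0.06), and its interval did not overlap that of ANLN. RACGAP1, which recruits ECT2, kept 69.2%, and PRC1, which bundles the microtubules of the midzone, kept 65.9%.

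The last 3 members serve as proliferation markers or regulators. MKI67 (Ki-67), which coats mitotic chromosomes, was the most abundant member and went from 29070 to 17333, a log2 fold change of −0.75 (SE 0.05, adjusted p = 4.7e-47). TOP2A, the topoisomerase that untangles sister chromatids, went from 21491 to 15190 (70.7%). FOXM1, which encodes a transcription factor of the G2/M genes themselves, went from 4218 to 2958 (70.1%). FOXM1 overlaps ITFG2 and RHNO1, with log2 fold changes of −0.16 (SE 0.15) and −0.01 (SE 0.11).

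Divided by transcript length, levels can be set beside each other. At vehicle, ANLN led with 6132 normalized counts per kb, ahead of UBE2C with 5099 and TPX2 with 4604, while CDC25C was lowest with 138 and ESPL1, the long transcript of separase, stood at 282. MKI67, first by counts, had 2286 per kb over its long transcript. With PT2399, ANLN stood at 3115 per kb, below UBE2C at 3335 and TPX2 at 3134. These levels carry no error of their own, so the order of close ones is not settled. They use the length of the canonical transcript of each gene, and which isoforms were expressed was not examined.

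**Figure D3:**
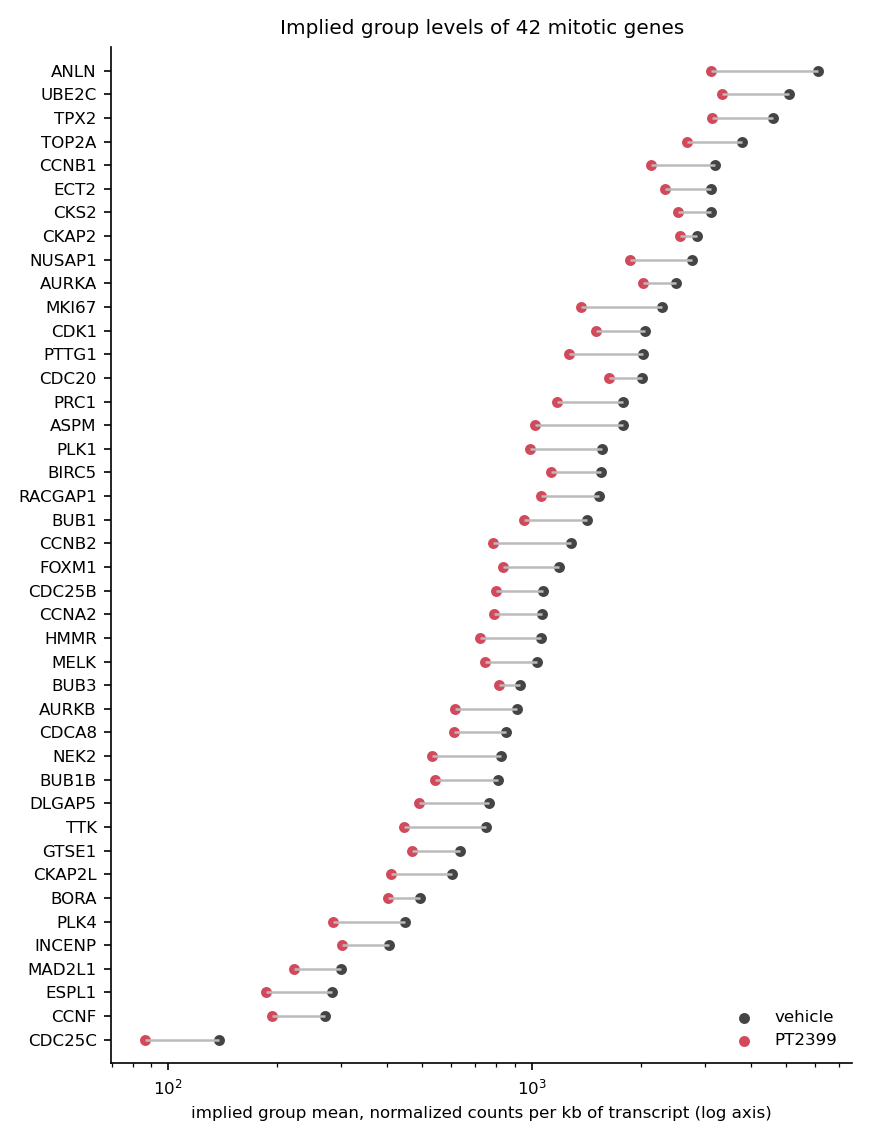
Implied level in normalized counts per kb of canonical transcript (log axis) for each of the 42 genes with vehicle and with PT2399, joined by a line, computed from the authors' means and fold changes over 3 against 3 libraries with no error bars. Each PT2399 point lies below its vehicle point, and the levels span 138 to 6132 per kb at vehicle.

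Other genes of the same processes were lower in part. Over 4 further lists of mitotic regulators, 65 genes of which all were tested, 24 were called lower, 2 higher and 39 were not called, with a median of −0.10, beside the 11.7% lower and 11.3% higher of all tested genes. Of 17 further subunits, cofactors and inhibitors of the APC/C, 3 were lower (FBXO5, ANAPC1 and ANAPC16) and ANAPC13 was higher by 0.28 (SE 0.07), with a median of 0.02. FBXO5 (EMI1), an inhibitor of the APC/C rather than a part of it, had the largest fall there at 0.42 (SE 0.08). CDC27, a core subunit, had a value of 0.13 (SE 0.05), and UBE2S, the enzyme that extends ubiquitin chains, −0.15 (SE 0.07), neither called.

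The regulators around CDK1 and the mitotic phosphatases counted 6 lower, 1 higher (CDC14A, 0.36, SE 0.14) and 11 not called of 18 (median −0.16). CKS1B, the close relative of CKS2, fell by 0.62 (SE 0.09), and MASTL (Greatwall), which restrains PP2A in mitosis, fell by 0.33 (SE 0.07). The PP2A inhibitor ARPP19 and the phosphatase subunit PPP1CC had values of −0.12 (SE 0.05) and 0.03 (SE 0.06), neither called.

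Among the 12 genes of MuvB, DREAM and the MYB complex, 5 were lower and 0 higher (median −0.10). The called ones included MYBL2 (B-MYB), which fell by 0.65 (SE 0.09), and RBL1 (p107), which fell by 0.56 (SE 0.08), a pair of subunits that are themselves made in a cell cycle dependent way. The remaining called genes were the MuvB subunits LIN9, LIN54 and LIN52. Their log2 fold changes were −0.53 (SE 0.10), −0.45 (SE 0.08) and −0.41 (SE 0.13). The MuvB subunit RBBP4 had a value of −0.10 (SE 0.05) and the E2F partner TFDP1 of −0.10 (SE 0.06), neither called. Of 18 other checkpoint genes and mitotic kinases, 10 were lower and 0 higher (median −0.22). They included NEK6, a kinase that acts in spindle formation, with a fall of 0.83 (SE 0.06), and KNTC1 (ROD), which recruits dynein to kinetochores, with 0.64 (SE 0.06). PLK2 and NEK7, relatives of PLK1 and NEK6, had values of 0.05 (SE 0.06) and 0.04 (SE 0.08), neither called.

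**Figure D4:**
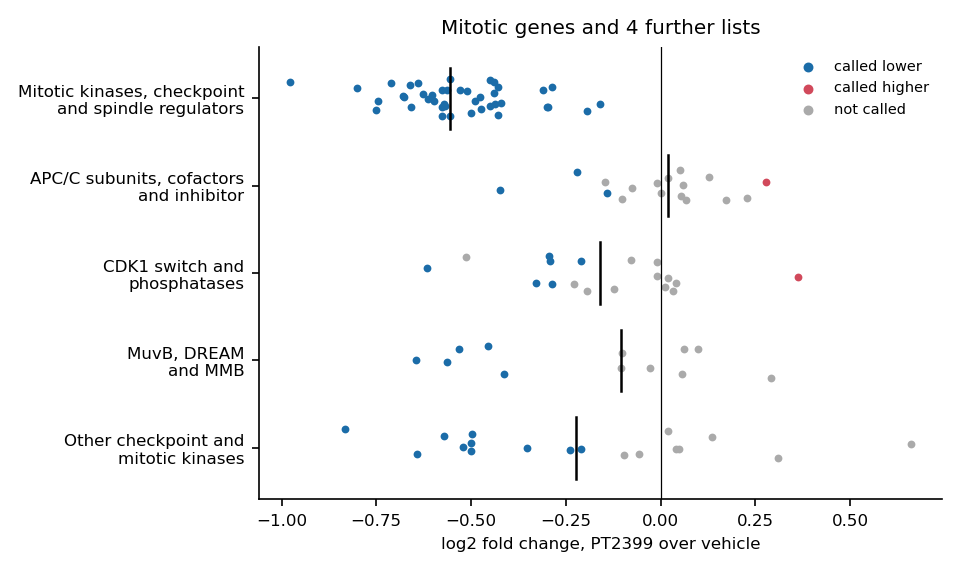
Log2 fold change of PT2399 over vehicle (horizontal axis) for every gene of the 42 members and of the 4 other mitotic lists (vertical axis, points spread for clarity), each point a gene of the authors' DESeq2 comparison of 3 against 3 libraries, coloured by whether it was called lower, called higher or not called, with a bar at each list's median. The members all lie below 0 and are all called lower, while the other lists straddle 0 with medians from −0.22 to 0.02.

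Promoters were listed for 34 of the 42 members and not for AURKA, TPX2, BIRC5, BUB3, TTK, UBE2C, RACGAP1 and FOXM1. In the 300 bases from 250 before to 50 after the first listed start, searched on both strands, the CHR core occurred in 24 of 34 members (70.6%), against 15.4% of 27305 listed promoters and 9.77% of those of 10306 tested genes. The CCAAT box occurred in 27 (79.4%), against 35.7% and 36.9%, and both together in 21 (61.8%), against 6.08% and 4.09%. The core of the HIF binding site (ACGTG or CACGT), searched for comparison, occurred in 12 (35.3%), against 21.6% and 26.5%. In the members the median distance of a match from the start was −29 for the CHR core and −79 for the CCAAT box, and 18 members had a CHR core between −60 and +50, where 2.93% of tested genes had one. Over all listed starts of a gene, rather than the first, 25 members had a CHR core and 30 a CCAAT box.

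Within the members, a match to the CHR core at the first listed start went with no larger fall. The median was −0.56 with it and −0.57 without it. Members without a match may still carry a CHR in other letters or at another start. For the CCAAT box the medians were −0.56 with and −0.58 without it, and for the HIF core −0.58 and −0.53. These differences were not tested. The 10 members with no CHR match at the first start were NEK2, BUB1, CCNA2, CCNB1, CDC25C, PTTG1, MELK, CKAP2, AURKB and CDC25B. Among tested genes outside the 42, 17.9% of 983 with a CHR core were called lower and 11.1% higher, against 11.5% lower and 13.5% higher of 9289 without it. With both motifs 19.7% of 401 were lower and 11.5% higher, against 11.8% and 13.3% of the other 9871. With a CCAAT box 12.3% were lower and 12.8% higher, and without it 12.0% and 13.6%. With the HIF core 11.6% were lower and 14.4% higher, and without it 12.3% and 12.9%. A match of letters is a description of the promoter and not of binding.

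**Figure D5:**
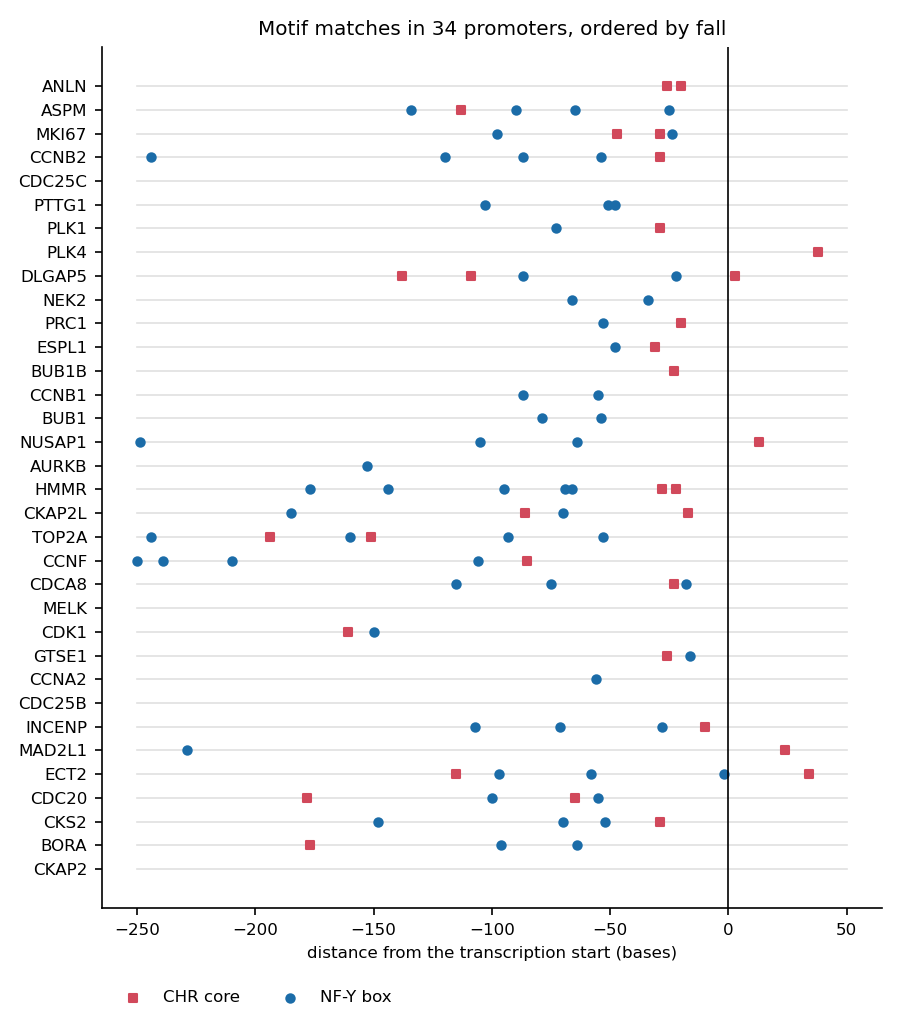
Positions of CHR core and CCAAT box (labelled NF-Y box) matches in bases from the first listed start (horizontal axis) in the 34 members with a listed promoter (vertical axis, by size of fall), from RefSeq GRCh38.p14. CHR cores gather near the start, with a median of −29, and CCAAT boxes before them, with a median of −79.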

How the data were processed

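The only deposited data are the results of a DESeq2 comparison run by the authors, whose fold changes and p-values are the authors' own findings. No column of single libraries was given to refit, so the main calls are the authors', described and not recomputed. Some of the alternatives re-adjusted the authors' p-values or recomputed Wald tests from the authors' fold changes and SEs. Per the labels, RNA of pooled polysome fractions was made into stranded total RNA libraries and sequenced as paired ends, and hg38, DESeq2 1.22.1, Salmon, STAR 2.7.3a and bcl2fastq 2.18 are named in the submitters' processing notes. The mean normalized count is a signal the authors scaled with DESeq2 size factors. The log2 fold change and its SE were deposited unshrunken, the deposited Wald score is their quotient, and the deposited p-value was adjusted by the authors with the Benjamini-Hochberg method over 15634 tested rows (14711 rows, with a mean under 14.5, were not tested). The dose is printed as 2 µM, after the paper and the treatment protocol; a characteristic of the PT2399 samples has mM.

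From this table, genes with an adjusted p up to 0.05 were called. Each 95% interval spans 1.96 SE on either side of the log2 fold change. Group levels follow from the mean and the fold change of 3 against 3 libraries and are approximate. Lengths are of the GENCODE canonical transcript, and coordinates and promoters are from RefSeq on GRCh38.p14. The members and lists were chosen with earlier results of these data known. Named genes are the 42 members and the 5 drug check genes. Of each other mitotic list, up to 2 called genes (smallest adjusted p) and up to 2 uncalled ones (highest mean) are also named. ANAPC1, ANAPC16, CDC14A, LIN9, LIN54 and LIN52 were chosen after values were seen. So were the overlapping genes, the pairs, the motif windows and the cell division genes. Alternatives were other thresholds, filters, adjustments, a centring and a correction for GC content and length. Computations used matplotlib 3.10.9, scipy 1.17.1, numpy 2.4.6, pandas 2.3.3 and Python 3.11.15, and were tested on simulated data. Precision is limited by 3 libraries a group; total counts per library, replicate agreement and batches could not be examined.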

Additional observations from a re-analysis of the deposited data

How the results depend on the processing

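All 42 members stayed called lower with the adjustment over all p-values, with a minimum mean of 10 or of 100, after centring and after correction for GC content and length, and 0 were called higher under any alternative run. The adjustment and the minimum means used the same p-values again, and centring subtracted 0.016 from each log2 fold change. These alternatives could therefore change little. At an adjusted p of at most 0.01, 41 were lower, all but CKAP2 (0.0231). Where a log2 change of 1 or more in size was also required, 0 members were lower, and so were 0 genes of the 4 other lists, with 0 higher, and 1.11% of tested genes. Tested against a 1.2-fold change instead of no change, 27 members were lower, with 8 lower and 0 higher in the other lists and 2.83% of tested genes; the 15 members lost were CCNA2, CCNF, CKS2, CDC25B, CDC25C, AURKA, BORA, INCENP, CDCA8, BUB3, MAD2L1, CDC20, CKAP2, GTSE1 and ECT2. The adjustment over all p-values ran over all 30341 rows with a p-value, of which 5.27% were lower, a share of more rows than the 15634 tested genes. In the other lists the 2 higher calls became 1 at the stricter threshold, with the adjustment over all p-values and after centring, and 3 with a minimum mean of 100 and after the GC and length correction. The members' median ran from −0.57 to −0.53. No paired analysis was possible because the table has no columns of single libraries, and leaving out a replicate was not run for the same reason.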

Other observations

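Beyond the listed genes, the table's Gene Ontology annotation of cell division, chosen after values were seen, holds 257 further tested genes, of which 82 were called lower, 23 higher and 152 were not called (median log2 fold change −0.07), where 11.7% of all tested genes were lower and 11.3% higher. Parts of the kinetochore and of condensin were among the larger falls by log2: CENPW fell by 0.78 (SE 0.21), KNL1 fell by 0.70 (SE 0.07), CENPF fell by 0.70 and CENPA, the centromeric histone H3 variant, fell by 0.66 (SE 0.13), and the condensin subunits SMC4 and NCAPG fell by 0.77 (SE 0.07) and 0.66 (SE 0.07). CIT, the citron kinase of the midbody, fell by 0.74 (SE 0.06), and KIF18B, a kinesin of microtubule plus ends, fell by 0.71 (SE 0.07). Those that rose included the G1 cyclins CCND3, by 0.53 (SE 0.09), and CCNE1, by 0.32 (SE 0.11), while the D-type cyclin CCND1 fell by 1.11 (SE 0.04). KLHL13, an adaptor of a CUL3 ubiquitin ligase that acts on Aurora B, rose by 0.50 (SE 0.05), and TUBA1A, an alpha-tubulin, by 0.42 (SE 0.05).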
